A study of Mus musculus with 14 samples.

Results

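The comparison described here is that of mRNAs recovered with miR-93-5p against those recovered with a control, in LEPC cells. It rests on 2 of the 14 samples of the series, the library of miRNA-interacting mRNA labelled scr and the one labelled as overexpressing miR-93-5p, called the scr pulldown and the miR-93-5p pulldown below. Both come from the mouse LEPC cell line of strain C57BL/6 at 3 passages, both are total RNA extracted with Trizol and prepared with a TruSeq kit, and the series text attaches biotin to the miR-93-5p group. How the RNA was captured, and what the control bait was, is not given in the sources used here. Each group had 1 library, so no value has a replicate error, no test between groups was possible, and each difference is one between 2 libraries. In bulk RNA, fewer cells of a type and less RNA per cell cannot be told apart.

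A microRNA is a short RNA that guides an Argonaute protein to messenger RNAs, chiefly through pairing between the seed at its 5′ end and sites in the 3′ untranslated region, and the bound mRNA is then degraded or translated less. miR-93-5p belongs to the miR-17 family, whose members arise from related clusters of hairpins, share a seed and are known for targets such as the cell cycle inhibitor Cdkn1a and the transcription factor E2f1. The Mir93 hairpin lies with Mir106b and Mir25 in an intron of Mcm7, a subunit of the replicative helicase. A pulldown with a tagged microRNA is meant to recover mRNAs that the microRNA holds.

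The mature microRNA and the other mouse microRNAs with its seed are shown because the comparison asks which mRNAs this bait recovers. Sequences are from RefSeq on GRCm38.p6, 5′ to 3′, with bases 2 to 8, the seed, in capitals.
miR-93-5p: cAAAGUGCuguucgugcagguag
miR-106b-5p: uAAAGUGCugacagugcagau
miR-17-5p: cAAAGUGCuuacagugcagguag
miR-20a-5p: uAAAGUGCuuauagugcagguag
miR-20b-5p: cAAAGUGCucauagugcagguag
miR-106a-5p: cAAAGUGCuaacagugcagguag
miR-6383: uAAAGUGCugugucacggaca

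Mature miR-93-5p lies at chr5:138165574-138165596 on the minus strand. Position by position, miR-20b-5p shared 20 of 23 bases with it, miR-17-5p, miR-20a-5p and miR-106a-5p shared 19 of 23, miR-106b-5p shared 16 of 21 and miR-6383 shared 10 of 21. The mRNA letters that pair with the seed are GCACTTT in DNA code. Transcript sequences were not used here, so no count of such sites in the recovered mRNAs is given.

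The scr pulldown held 15302 assembled loci with an FPKM above 0 and the miR-93-5p pulldown 18031. FPKM is a fragment number divided by the length of the transcript model and by the library's total, and the files give each value with a lower and an upper bound. Implied fragments, as used here, are the fragments that would give bounds of that width by counting alone. For loci of 400 to 1500 bp, implied fragments per unit of FPKM lay on a straight line against locus span in both libraries, with 96.0% of 1168 loci in scr and 94.8% of 2460 in miR-93-5p within 10% of it. The slope of that line is the number of fragments by which the authors' FPKM was divided, and it came to 14288593 in scr and 13421692 in miR-93-5p, a ratio of 0.939. The implied fragments of all loci summed to 37.2% of the first total and 28.4% of the second, so the assembled loci of the miR-93-5p pulldown held a smaller share of its fragments as far as the bounds show.

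**Figure D1:**
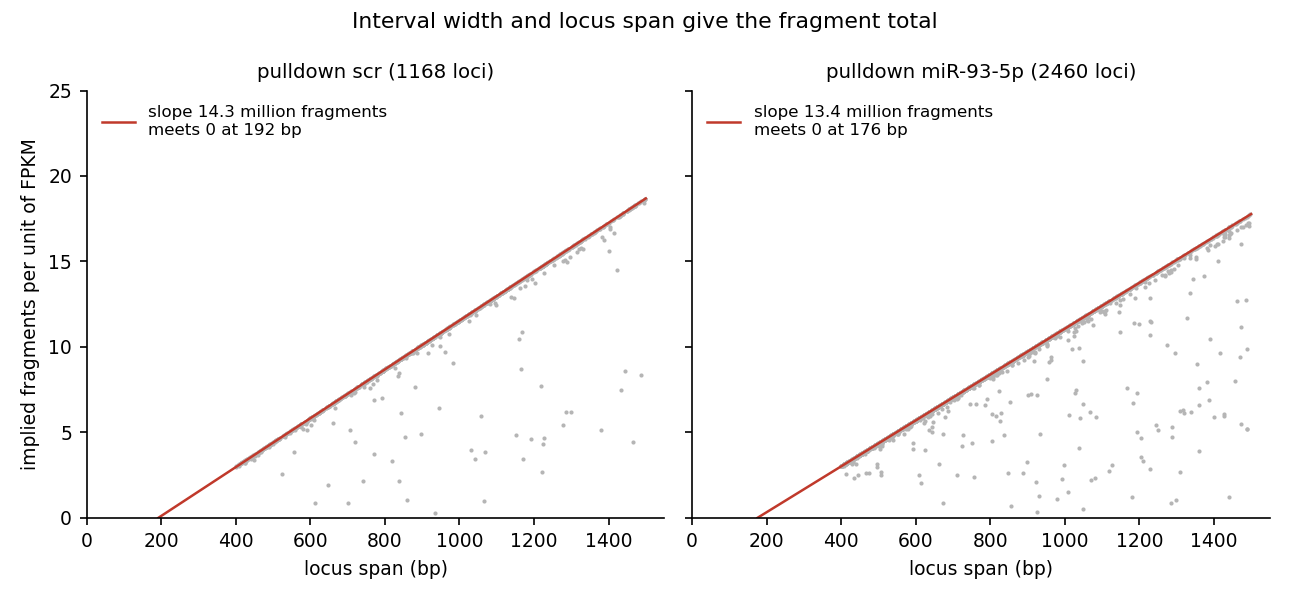
Implied fragments per unit of FPKM (y axis) against locus span in bp (x axis) for the loci from which the line was fitted, in the scr pulldown (left) and the miR-93-5p pulldown (right), 1 point per locus. Nearly all points follow the fitted line, which rises by 14.3 per kb in scr and 13.4 per kb in miR-93-5p and meets 0 at 192 and 176 bp. The points below the line are loci whose bounds are wider than counting alone gives.

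Interval width and locus span differed between the libraries before any gene was compared. The median locus spanned 9176.5 bp in scr and 2121 bp in miR-93-5p, and loci under 3 kb made up 34.3% and 54.5%. Loci of 300 to 999 bp numbered 1938 in scr and 5111 in miR-93-5p. The median width of the interval relative to FPKM was 0.409 in scr and 0.614 in miR-93-5p. Loci under 100 bp numbered only 56 and 47, yet they held 88.5% and 87.3% of all FPKM with 0.124% and 0.0663% of the implied fragments, so a sum or ranking of FPKM over all loci is set by them. None of them enters the gene comparison by itself, because a locus had to share at least 0.5 of its joint length with a gene.

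Of 21887 protein-coding genes, a matched locus was found for 8499 in scr and for 5749 in the miR-93-5p pulldown, and the 5400 found in both were compared. A difference of 2-fold or more was seen with the miR-93-5p pulldown higher for 639 genes (11.8% of those compared) and lower for 1801 (33.4%). Over all compared genes the median log2 ratio was -0.47, and with ratios centred on that median 1107 genes (20.5%) were higher and 1109 (20.5%) lower. Because each library has its own transcript models, implied fragments, which use no length, were scaled so that the median ratio was 1, and served as a second measure over the 5174 genes with at least 3 in each library. By that measure alone 1057 genes (20.4%) were higher and 1169 (22.6%) lower by 2-fold or more. In both measures 508 genes (9.82%) were higher and 827 (16%) lower. With implied fragments divided by the totals from the line instead of scaled, these were 381 and 1252. The median counting error (SE) of a log2 ratio was 0.13, and it covers counting and assignment only.

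**Figure D2:**
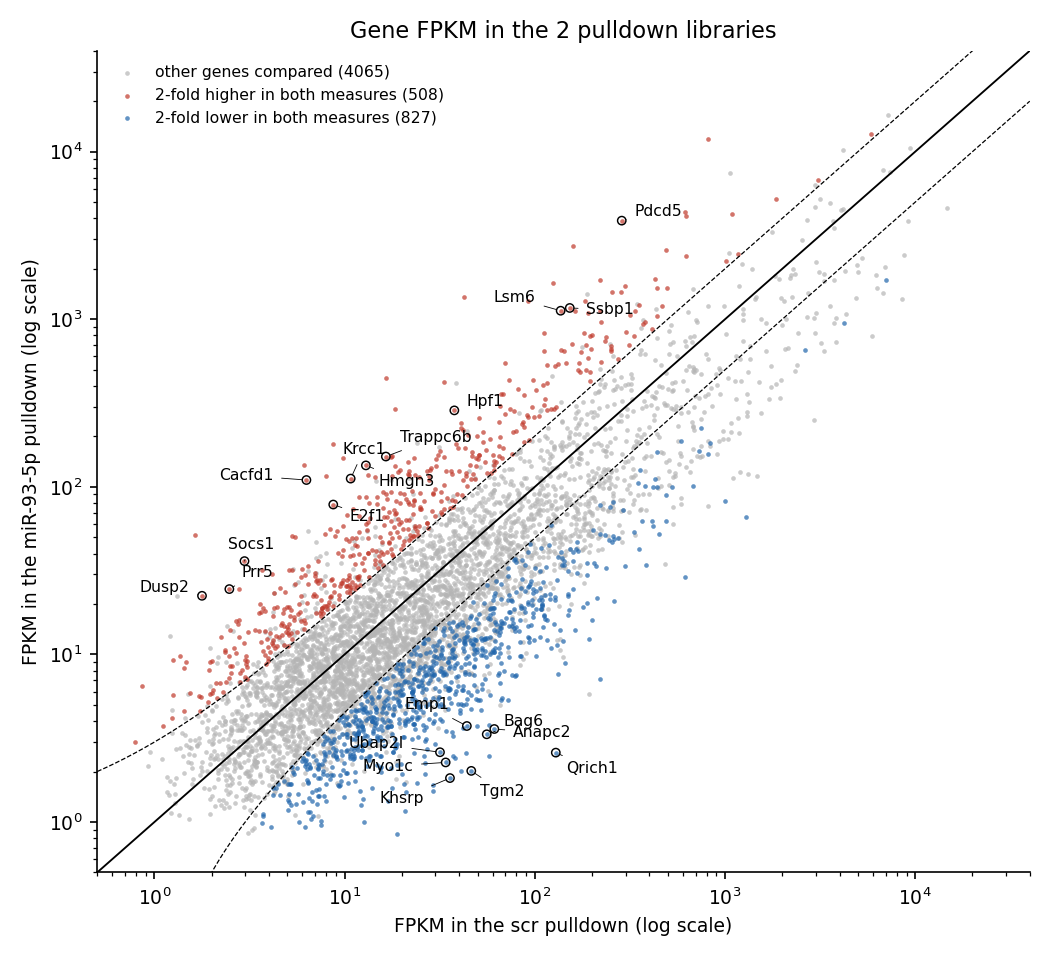
FPKM of each of the 5400 genes in the scr pulldown (x axis, log scale) and in the miR-93-5p pulldown (y axis, log scale), 1 library each. Red and blue points are the 508 and 827 genes at least 2-fold higher or lower in FPKM and in implied fragments, the solid line marks equal FPKM, the dashed lines 2-fold after adding 1, and circled genes are the 12 highest and 8 lowest described in the text. More of the cloud lies below the solid line than above it, most of all at high FPKM.

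Among genes higher in both measures, the 12 with the largest differences held regulators of signalling, the cell cycle and chromatin beside genes of RNA and DNA metabolism. Socs1, a feedback inhibitor of cytokine receptor signalling, was at 2.97 FPKM (bounds 1.98 to 3.97) in scr and 36.0 (32.6 to 39.5) in miR-93-5p, a log2 ratio of 3.22 with a counting SE of 0.25. Its 36.0 and 429 implied fragments went with nearly the same implied length, 0.847 and 0.886 kb. Implied length is implied fragments divided by FPKM and by the slope of the line. Dusp2, a nuclear phosphatase that inactivates MAP kinases, was at 1.78 FPKM (1.16 to 2.39) in scr and 22.4 (20.2 to 24.5) in miR-93-5p, with 33.3 and 440 implied fragments. Hmgn3, a nucleosome-binding protein, was at 12.9 FPKM (10.4 to 15.5) in scr and 134 (126 to 143) in miR-93-5p, with implied lengths of 0.552 and 0.526 kb. Trappc6b, a subunit of a vesicle tethering complex, was at 16.5 and 152 FPKM. For Trappc6b and the 3 genes before it, the bounds of the libraries lay far apart and the implied lengths were close to equal.

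E2f1, a transcription factor that drives entry into S phase and a reported target of the family, was at 8.71 FPKM (7.61 to 9.81) in scr and 78.4 (74.0 to 82.7) in miR-93-5p. Its log2 ratio was 3.03 in FPKM and 2.94 in scaled implied fragments, on implied lengths of 2.01 and 1.23 kb. Cacfd1 stood at 6.29 and 110 FPKM, with a log2 ratio of 3.93 in FPKM and 3.76 in implied fragments. Pdcd5, a small protein linked to apoptosis, stood at 286 and 3875 FPKM, with 989 and 20088 implied fragments. The other 5 were Krcc1 at 10.8 and 112 FPKM, the Sm-like protein gene Lsm6 at 137 and 1124, the mitochondrial single-stranded DNA-binding protein gene Ssbp1 at 153 and 1167, Hpf1, a partner of PARP enzymes, at 37.7 and 286, and Prr5, a component of mTOR complex 2, at 2.48 and 24.5. Over the 12 genes the log2 ratio in FPKM ran from 2.88 to 3.93. Implied lengths were short for Pdcd5 (0.242 and 0.386 kb), Lsm6 (0.192 and 0.126 kb) and Ssbp1 (0.299 and 0.211 kb). Implied fragments of these genes may therefore be lower limits, as described below for abundant genes. Pdcd5 also has 1 pseudogene named after it.

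The 8 genes lowest in both measures were led by Qrich1, at 129 FPKM (122 to 135) in scr and 2.59 (1.73 to 3.46) in miR-93-5p, with 1598 and 36.2 implied fragments. Its implied lengths were 0.868 and 1.04 kb, but its locus spanned 57468 bp in scr and 26104 bp in miR-93-5p. Anapc2, which helps form the anaphase-promoting complex, stood at 61.2 FPKM (58.0 to 64.5) in scr and 3.59 (2.75 to 4.43) in miR-93-5p, on implied lengths of 1.62 and 1.51 kb. In the other 6 genes the miR-93-5p pulldown covered the gene with several loci, and the best matched one held only part of the fragments. Emp1, a membrane protein, had 1553 implied fragments in scr and 38.9 in its matched miR-93-5p locus, but 602 over all loci in the gene. Myo1c, an unconventional myosin, had 1625 in scr against 41.1 in the matched locus and 382 over all loci. For Khsrp, an RNA-binding protein that promotes mRNA decay, the matched locus held 31.0 and all loci 172, against 1146 in scr. For the chaperone gene Bag6 these were 79.2 and 244 against 2244, and for Ubap2l 65.5 and 166 against 1248. Tgm2, a transglutaminase, had 903 in its matched scr locus and 1601 over all scr loci, against 54.1 and 198 in miR-93-5p. Summed over all loci, each of these 6 genes was still lower in the miR-93-5p pulldown, by a smaller factor than in the matched locus.

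Among the genes with the most extreme FPKM ratios, the ratio of implied fragments was often much smaller, so implied length, the quotient of implied fragments and FPKM, differed between the libraries. Arpp19, an inhibitor of a protein phosphatase, was at 42.4 FPKM in scr and 1350 in miR-93-5p, a log2 ratio of 4.96. Its implied length was 2.64 kb in scr and 0.173 kb in miR-93-5p, and its scaled implied fragments gave 1.59, while its locus spanned 22643 and 20614 bp. Gtf3c6, a subunit of RNA polymerase III transcription factor TFIIIC, was at 16.4 and 447 FPKM on 2.12 and 0.234 kb. Svip at 1.63 and 51.7, the DNA repair gene Xpa at 6.12 and 134, and Uimc1, a DNA damage response protein, at 8.72 and 180 also had lower implied lengths in miR-93-5p. For Uimc1 the matched loci held 211 implied fragments in scr and 725 in miR-93-5p, but all loci in the gene held 772 and 848. For Svip the matched loci held 26.9 and 149, and all loci 70.3 and 216. Over the 115 genes higher in FPKM alone, the median implied length was 1.72 kb in scr and 0.405 kb in miR-93-5p, and for 55 of them implied fragments per library total were lower in miR-93-5p.

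At the other end, Pet100, an assembly factor of cytochrome c oxidase, was at 193 FPKM in scr and 5.82 in miR-93-5p, a log2 ratio of -4.83, while its scaled implied fragments gave -0.032. Its implied length was 0.0871 kb in scr and 1.94 kb in miR-93-5p. Actb, cytoplasmic beta-actin, was at 613 FPKM (586 to 640) and 28.8 (26.2 to 31.4), on implied lengths of 0.232 and 1.30 kb, with 2034 and 504 implied fragments. Pkm, the pyruvate kinase of glycolysis, was at 1293 and 66.2 FPKM, on 0.1801 and 0.9985 kb, with 3328 and 887 implied fragments. Mri1, of the methionine salvage pathway, was at 220 and 7.12 FPKM with only 13.2 implied fragments in miR-93-5p. The 902 genes lower in FPKM alone had median implied lengths of 0.686 kb in scr and 1.11 kb in miR-93-5p. The direction of Actb and Pkm held in both measures, and the size of their differences did not. Their loci spanned 3662 and 3607 bp for Actb and 22610 and 22391 bp for Pkm, so a change of transcript model is not shown by these values.

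**Figure D3:**
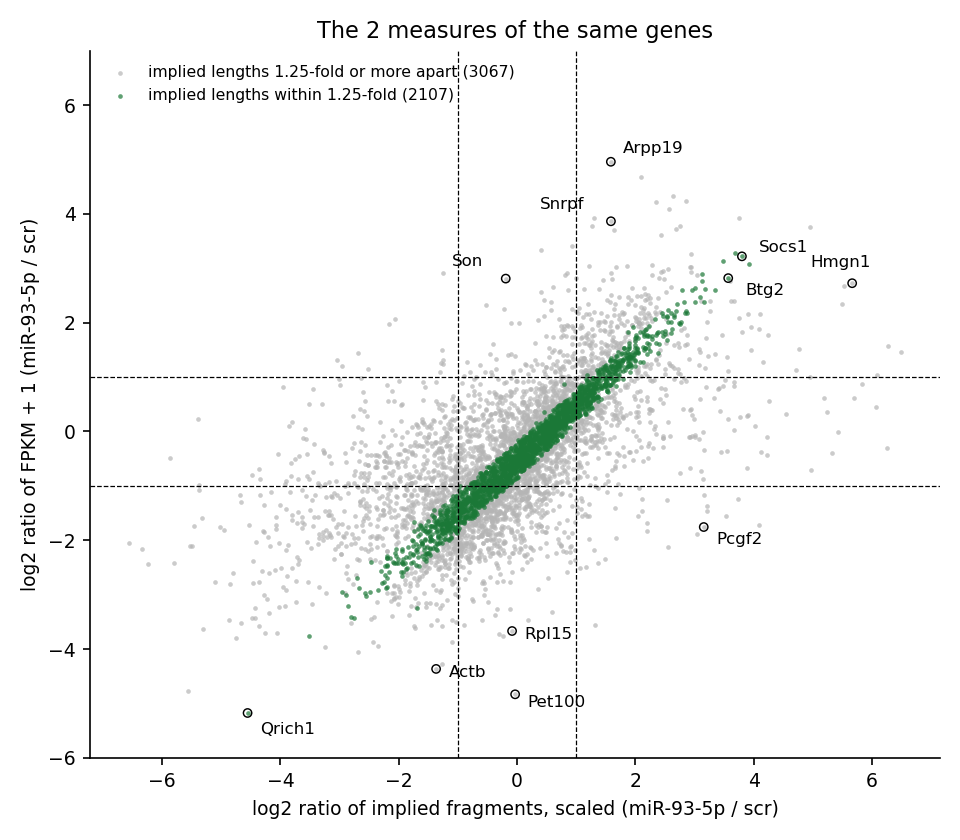
Log2 ratio of FPKM + 1 (y axis) against log2 ratio of scaled implied fragments (x axis) for the 5174 genes with both measures, 1 point per gene, dashed lines at 2-fold. Green points are the 2107 genes whose implied lengths in the 2 libraries lie within 1.25-fold, and grey points are the other genes. The green points follow 1 diagonal by construction, because implied length is the quotient of implied fragments and FPKM. Arpp19, Snrpf, Son, Pet100 and Rpl15 lie far from the diagonal, and Socs1, Btg2 and Qrich1 lie near it.

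Interval width set a limit on the second measure for abundant genes. In scr the median implied length was 1.95 kb for genes at 3 to 10 FPKM and 0.896 kb at 30 to 100 FPKM. It was 0.459 kb at 100 to 300 FPKM, 0.222 kb at 300 to 1000 FPKM and 0.0743 kb at 1000 FPKM and over. In miR-93-5p it was 1.28, 0.800, 0.447, 0.210 and 0.0917 kb in the same classes. The median span of the genes was 28983.5 bp in the first of these classes in scr and 3616.5 bp in the last, so the most abundant genes were also short ones. An implied length of 0.0743 kb is far below that of an mRNA, so implied fragments of the most abundant genes are read here as lower limits. Their median was 2137 in scr and 2039 in miR-93-5p for genes of 1000 FPKM and over. For such genes a small ratio of implied fragments does not show a small difference, and implied length follows FPKM by its construction.

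The level of a gene in scr moved with its ratio. In the lowest quartile of genes by scr FPKM the median log2 ratio was 0.11, and it was -0.45, -0.83 and -1.02 in the next 3 quartiles. In scaled implied fragments the 4 medians were 0.25, -0.14, -0.15 and 0.04. Ranking genes by the level in one library ties that level to the ratio, so this is a description. Among the 2107 genes with implied lengths within 1.25-fold, 202 (9.59%) were higher and 555 (26.3%) lower in FPKM, with a median of -0.33. Within them, genes under 10 FPKM in scr had a median of 0.083, with 94 of 588 higher and 63 lower, and genes at 10 to 30 FPKM had a median of -0.54, with 66 of 785 higher and 248 lower. Genes at 30 to 100 FPKM had a median of -0.61, with 33 of 506 higher and 176 lower, and genes at 100 FPKM and over one of -0.35, with 9 of 228 higher and 68 lower, so within these genes the median was not lowest in the most abundant class.

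Reported or predicted targets of the miR-17 family mostly differed by less than 2-fold where they could be compared, with E2f1 and Socs1 among the highest genes. Of 60 listed targets, 26 were compared, and 5 (19.2%) were higher and 2 (7.69%) lower in FPKM, beside 11.8% and 33.4% of all compared genes. Their median log2 ratio was 0.46 against -0.47 for all genes. All 5 higher genes, E2f1, Socs1, Btg2, Tusc2 and Trp53inp1, passed in both measures, and neither lower gene, Ccnd1 at 69.7 and 31.0 FPKM nor Sqstm1 at 251 and 124, did. In implied fragments per library total the list's median was -0.018, against -0.51 for all genes. A locus in the gene was found in both libraries for 54 targets, and there, with implied fragments summed over each gene and divided by the library total, 12 were at least 2-fold higher and 15 lower, with a median of -0.17. Over all 9527 protein-coding genes with such sums, 12.6% were higher and 36.3% lower, with a median of -0.52. The 28 targets outside the comparison had a median of -0.65, with 6 higher and 12 lower, beside -0.68 for all genes outside it.

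Single targets ranged widely. Btg2, an antiproliferative gene, was at 3.66 FPKM (2.99 to 4.33) in scr and 31.9 (29.9 to 33.9) in miR-93-5p, on implied lengths of 2.31 and 2.37 kb. Tusc2, a candidate tumour suppressor, was at 18.6 and 69.9 FPKM. Vegfa, a growth factor for endothelium, was at 11.5 and 21.2 FPKM, under 2-fold in FPKM. Cdkn1a, a well known target of the family, was at 54.6 FPKM (48.1 to 61.2) in scr and 56.5 (45.7 to 67.3) in miR-93-5p, and these intervals overlap. Its scaled implied fragments gave a log2 ratio of -0.69, from 279 and 109. Several reported targets had fewer fragments in the miR-93-5p pulldown over all loci of the gene, among them Stat3 with 355 and 26.9, App with 826 and 42, Hif1a with 320 and 67.9 and Mcl1 with 892 and 351. Mcm7, whose intron holds the hairpin, had 2240 implied fragments in scr and 1391 in miR-93-5p over all loci, and no matched locus in the latter. The intron with the hairpins of Mir93, Mir106b and Mir25 lay under 1 scr locus and under 0 miR-93-5p loci.

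Genes of the p53 response had the highest median in FPKM of the lists compared, though not over all members with summed fragments. Of 30 members, 18 were compared, and 12 (66.7%) were higher and 0 lower in FPKM, 11 of them higher in both measures. Over all compared genes 11.8% were higher and 33.4% lower in FPKM, and 9.82% were higher in both. Btg2, Trp53inp1 and Cdkn1a stand in this list as well as among the miR-17 family targets, and Dusp2 among the MAP kinase feedback genes. Cdkn1a, one of the 18 compared, was nearly equal at 54.6 and 56.5 FPKM, with -0.69 in scaled implied fragments. The median log2 ratio was 1.34 in FPKM, 1.39 in scaled implied fragments and 1.23 over the 6 members with implied lengths within 1.25-fold. Gadd45a, a growth arrest gene, was at 23.5 FPKM (20.5 to 26.6) and 117 (108 to 126), and Trp53inp1, a p53-induced nuclear protein, at 2.34 (1.599 to 3.07) and 10.3 (9.52 to 11.2). Mdm2, the ligase that degrades p53, was at 19.3 and 59.8 FPKM, the BH3-only gene Bbc3 at 8.52 and 27.8, Pmaip1 at 5.45 and 15.97, Ddit4, an mTORC1 inhibitor, at 39.8 and 125, and Perp, a desmosome gene, at 17.7 and 49.5. Aen, a nuclease at 26.1 and 56.6 FPKM, was higher in FPKM alone, with 618 and 158 implied fragments. Phlda3 was at 144 and 121 FPKM and Plk2 at 31.3 and 27.4. The 10 further members with summed fragments in both libraries had a median log2 ratio of -0.90, with 0 higher and 4 lower (40%), beside 41.8% lower and a median of -0.68 for all genes outside the comparison. Over all 28 members with sums 10 (35.7%) were higher and 6 (21.4%) lower, beside 12.6% and 36.3% of all genes with sums. The median of these members was 0.18, below 0.70 for high mobility group genes and 0.67 for AP-1 and immediate early genes. The p53 median in FPKM was also below that of high mobility group genes with an overlap of at least 0.9 (1.28 and 1.32) and below that of 3 MAP kinase feedback genes with a minimum of 10 (1.414 and 1.5005). Bax, the pore-forming death effector, was at 511 FPKM in scr, and in the miR-93-5p pulldown 1 locus touched the gene and 0 lay within it. Trp53 itself was at 67.5 FPKM (62.5 to 72.5) in scr and 5.50 (4.41 to 6.58) in miR-93-5p.

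Among immediate early and feedback genes, many of which encode short-lived mRNAs, several were at least 2-fold higher in FPKM and 0 at least 2-fold lower. Of 30 AP-1 and immediate early genes 20 were compared, 6 (30%) were higher and 0 lower in FPKM, all 6 also in implied fragments. The median was 0.60, and over all compared genes 11.8% were higher and 33.4% lower in FPKM. Btg2 was one of the 6. Zfp36l2 and Zfp36, which bind AU-rich elements and promote mRNA decay, stood at 22.6 and 93.9 FPKM and at 2.01 and 9.18. The transcription factor gene Klf4 stood at 5.74 and 19.9, Ier2 at 17.4 and 52.8 and Ier3 at 113 and 336. Jun was at 7.71 and 8.62 and Junb at 44.9 and 54.2, while Maff was at 18.6 and 10.4. Over the 24 members with summed fragments 8 were higher and 1 lower, with a median of 0.67 after division by the library totals. Of 10 MAP kinase feedback genes compared, 3 (30%) were higher and 0 lower in FPKM, and these 3 passed in both measures. They were Dusp2, the MAP kinase phosphatase Dusp1 at 12.6 and 37.4 FPKM, and Errfi1, an inhibitor of the EGF receptor, at 9.64 and 26.5. Dusp14 was at 11.4 FPKM (9.72 to 13.0) in scr and 5.35 (0 to 25.2) in miR-93-5p, short of 2-fold after adding 1. With 0.289 implied fragments in miR-93-5p and overlapping intervals, the size and direction of its difference are not determined. With implied fragments summed over each gene and divided by the library totals, 4 of 15 MAP kinase feedback genes were higher and 4 lower, with a median of -0.032. All genes with such sums had 12.6% higher and 36.3% lower, with a median of -0.52.

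Of 19 cytokine feedback and NF-kB genes compared, 6 (31.6%) were higher and 6 (31.6%) lower in FPKM, and 6 and 3 in both measures. Over all compared genes 11.8% were higher and 33.4% lower in FPKM, so the share of lower genes was near that of all genes. The higher ones were Socs1, Socs3, another cytokine signalling inhibitor, at 6.32 and 20.1 FPKM, and the chemokine genes Ccl20 at 14.7 and 79.1, Cxcl1 at 168 and 495, Cxcl2 at 11.3 and 34.7 and Cxcl10 at 7.80 and 19.4. Rela, the transactivating NF-kB subunit, was lower at 32.7 (30.4 to 35.1) and 4.95 (4.11 to 5.79), and so was Tnip1, a ubiquitin-binding inhibitor of the pathway, at 35.2 and 8.26. Of 11 interferon response genes compared 1 (9.09%) was higher and 3 (27.3%) lower in FPKM, near the shares of all compared genes. The higher gene was Isg15, a ubiquitin-like protein, at 8.35 and 55.7 FPKM. Ifitm1 and Ifitm3, which restrict virus entry, were lower at 65.8 and 6.71 and at 196 and 50.6, and so was Ifi35 at 27.8 and 10.8. Of the 3 lower genes Ifitm1 passed in both measures. The median of the 11 interferon genes was 0.35 in FPKM, beside -0.47 for all compared genes. With implied fragments summed over each gene and divided by the library totals, 8 of 17 (47.1%) were lower and 1 (5.88%) higher. The median of these 17 was -0.92, beside 36.3% lower, 12.6% higher and a median of -0.52 over all genes with sums.

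High mobility group genes, which encode small proteins that bind nucleosomes or bend DNA, were higher for 6 of 12 compared and lower for 2, with a median of 0.93 in FPKM and 1.25 in scaled implied fragments. As shares these were 50% higher and 16.7% lower in FPKM, beside 11.8% and 33.4% over all compared genes. The 6 higher genes were Hmgn1, Hmgn3, Hmgb1, Hmgb2, Hmgb3 and Hmga2, all past 2-fold in both measures. Hmgn1 stood at 627 FPKM (598 to 656) and 4154 (4120 to 4188), with 1820 and 60137 implied fragments. Its implied length was 0.203 kb in scr and 1.08 kb in miR-93-5p, so its log2 ratio was 2.73 in FPKM and 5.67 in implied fragments, and its bounds in miR-93-5p are narrow relative to its FPKM. Hmgb1 stood at 50.8 and 155 FPKM, beside 9 pseudogenes named after it that could share its reads. Hmga1 was lower at 234 and 51.8, in both measures.

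Genes of the spliceosome did not move one way. Of 43 compared 14 (32.6%) were higher and 11 (25.6%) lower in FPKM, beside 11.8% and 33.4% of all compared genes. In both measures 11 were higher and 3 lower, where the shares over all genes were 9.82% and 16%. The median was 0.23 in FPKM, -0.14 in implied fragments per library total and -0.42 over the 14 members with implied lengths within 1.25-fold. The Sm protein gene Snrpf was at 812 and 11843 FPKM with 1116 and 2185 implied fragments, and Lsm6, of the Sm-like ring, is described above. Sf3b4, of the U2 particle, was lower at 66.8 and 5.31 FPKM, on implied lengths of 1.23 and 1.47 kb. Son, a splicing cofactor with a long mRNA, was at 14.6 and 108 FPKM but at 379 and 214 implied fragments, so the 2 measures gave opposite signs.

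Many abundant housekeeping genes were lower in FPKM, and fewer of them were lower in both measures. For the most abundant of them implied fragments are lower limits, so the second measure says little about the size of the difference. Of 30 actin, tubulin and cytoskeleton genes compared, 0 were higher and 24 (80%) lower in FPKM, with a median of -1.88. In both measures 9 were lower, and the list's median of scaled implied fragments was -0.14. Over all compared genes 11.8% were higher and 33.4% lower in FPKM, and 16% were lower in both measures. Tubb5, a beta-tubulin, was at 481 and 34.5 FPKM, Tagln2 at 260.5 and 20.9 and the actin crosslinker Actn4 at 43.7 and 2.59. Actn4 and Tagln2 passed in both measures, and Tubb5 did not. Of 16 glycolysis and hypoxia genes 1 (6.25%) was higher and 9 (56.25%) lower in FPKM, with a median of -2.16, and 4 were lower in both. Eno1 was at 995 and 82.6 FPKM, Gapdh at 1313 and 119 and Aldoa at 1193 and 123. In scaled implied fragments Eno1 was at -1.27, Gapdh at -0.60 and Aldoa at -0.33, and Gapdh and Aldoa have 3 and 2 pseudogenes named after them.

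Cytosolic ribosomal protein genes were lower in FPKM for 38 (52.1%) of 73 compared and higher for 6 (8.22%), with a median of -1.11. In both measures 3 were lower and 3 higher, and the list's median was 0.44 in scaled implied fragments. Over all compared genes 33.4% were lower and 11.8% higher in FPKM, and 16% and 9.82% in both measures. Rpl15 was at 1478 and 115 FPKM, on implied lengths of 0.121 and 1.00 kb. Respiratory chain subunit genes were lower for 39 (54.2%) of 72 and higher for 7 (9.72%), with a median of -1.09. In both measures 7 were lower and 6 higher. Among the lower ones was Sdha, of succinate dehydrogenase, at 163 and 13.9 FPKM. Proteasome subunit genes were lower for 16 (51.6%) of 31, with a median of -1.11, and 3 were lower in both, among them Psmd2 at 199 and 16.1. Psmc6, an ATPase of the proteasome base, was the only proteasome subunit gene higher, at 38.7 and 179 FPKM. Implied fragments were also summed over each gene and divided by the library totals. By these sums 13.0% of ribosomal, 28.4% of respiratory chain and 25.8% of proteasome genes were lower. In the same order 3.90%, 1.35% and 0% were higher, beside 36.3% lower and 12.6% higher over all genes with sums. For the most abundant genes these sums are lower limits as well.

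Cell cycle and replication genes were lower for 10 of 22 compared and higher for 2, and 6 and 2 in both measures. As shares these were 45.5% lower and 9.09% higher in FPKM, beside 33.4% and 11.8% over all compared genes. Lower in both were Cdc20, the activator of the anaphase-promoting complex, at 75.6 and 7.49 FPKM, the mitotic kinase gene Plk1 at 29.3 and 3.88 and the helicase subunit gene Mcm5 at 52.8 and 6.62, and the 2 higher genes were E2f1 and Ccne2, which encodes cyclin E2, at 2.97 and 9.28. Of 9 enzymes and readers of H3K4 and H3K9 methylation compared, 5 (55.6%) were lower and 2 (22.2%) higher in FPKM. Trim28, a corepressor that recruits an H3K9 methylase, was at 143 (137 to 150) and 8.90 (7.75 to 10.0), Ehmt2, an H3K9 methylase, at 55.5 and 16.7, and Wdr5 and Ash2l, core subunits of H3K4 methylase complexes, at 15.7 and 4.55 and at 24.8 and 8.36. Trim28, Wdr5, Ash2l and the demethylase gene Kdm1a were lower in both measures, and Ehmt2 was at -0.95 in scaled implied fragments. Of 15 Polycomb and DNA methylation genes compared, 5 were lower (33.3%, against 33.4% of all compared genes) and 1 higher in FPKM, and the median was -0.24 in FPKM and 0.40 in scaled implied fragments. The histone-binding subunit Rbbp4 was at 116 and 15.99.

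**Figure D4:**
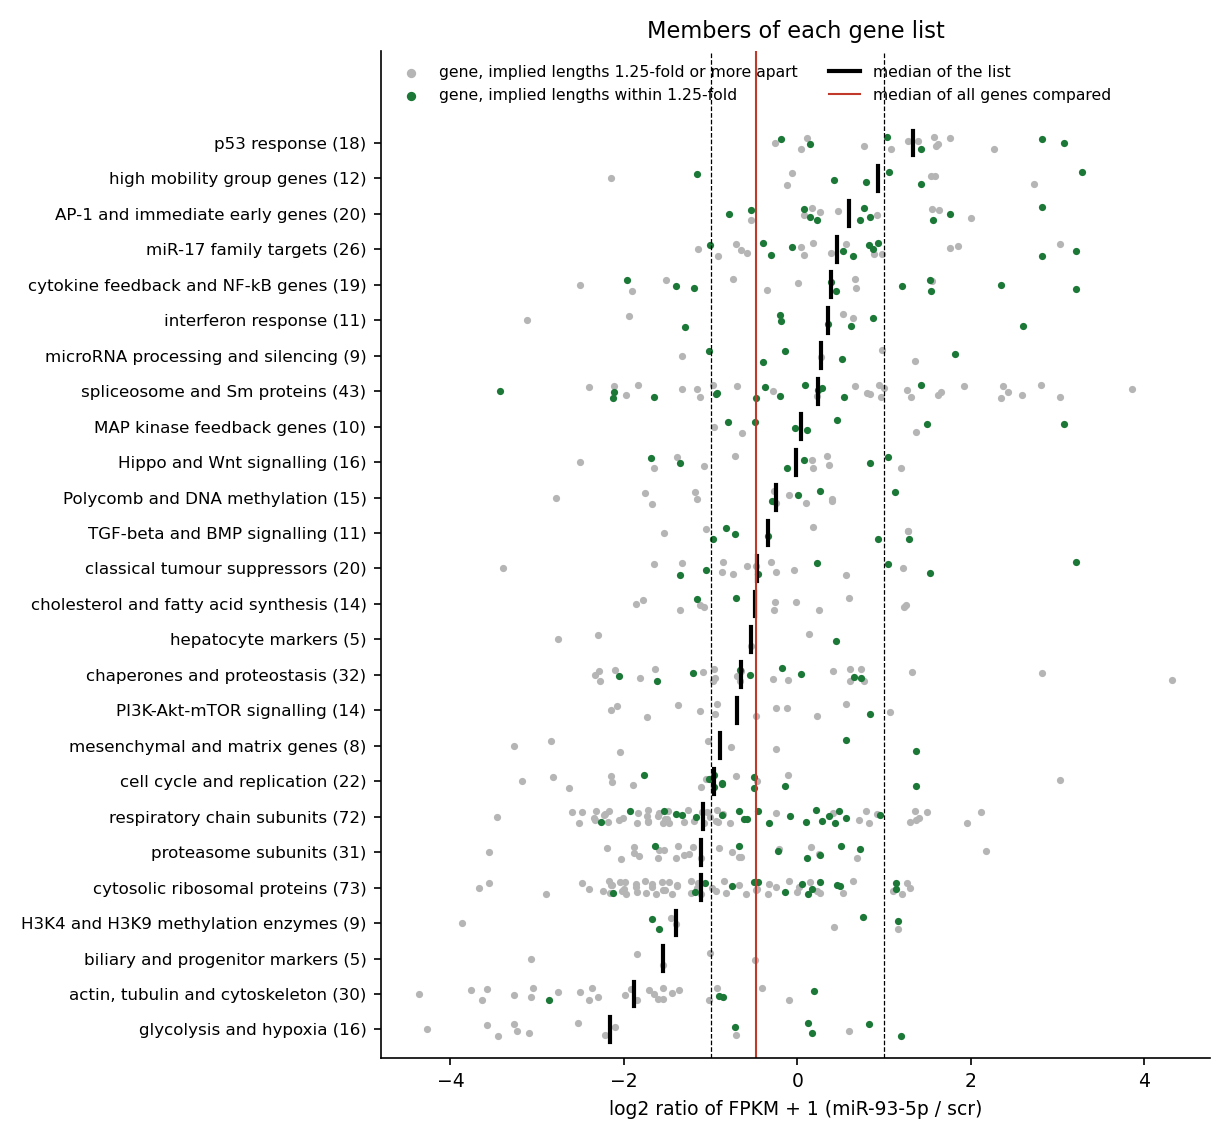
Log2 ratio of FPKM + 1 (x axis) for each compared member of the gene lists with at least 5 compared members (rows, number compared in brackets), 1 point per gene, black bars for list medians, the red line for the median of all genes and dashed lines at 2-fold. The p53 response list has the highest median at 1.34 and glycolysis and hypoxia the lowest at -2.16. In the lists at the bottom most low genes are grey, with implied lengths 1.25-fold or more apart between the libraries.

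Medians of the signalling lists, beside -0.47 for all genes, were -0.46 for 20 classical tumour suppressors, -0.33 for 11 TGF-beta and BMP genes, -0.020 for 16 Hippo and Wnt genes and -0.70 for 14 PI3K-Akt-mTOR genes. In scaled implied fragments, where the median of all genes is 0, they were 0.051, -0.13, 0.24 and 0.38 in the same order. Ctnnb1, which encodes beta-catenin, was lower at 204 and 35.0 FPKM and Akt1 at 92.5 and 20.1, both in both measures. Of 14 genes for cholesterol and fatty acid synthesis 6 were lower (42.9%) and 2 higher (14.3%), with a median of -0.49, near that of all genes. Of 9 genes of microRNA processing and silencing 2 were lower and 2 higher (22.2% each). Over all compared genes 33.4% were lower and 11.8% higher in FPKM. The 2 higher genes of microRNA processing and silencing were Cnot7, a deadenylase subunit, at 10.6 and 28.6 FPKM, and the decapping enzyme gene Dcp2 at 7.06 and 27.5.

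The labelled cell line was checked against markers. Of 22 hepatocyte markers, 8 had no locus touching the gene in either library, namely Alb, Apoa1, Fga, Fgb, Fgg, Tat, Tdo2 and Cps1, and the 5 compared were the keratins Krt8, at 590 and 86.2 FPKM, and Krt18, at 931 and 188, and the transcription factors Foxa2, Cebpa and Cebpb. Albumin and the fibrinogen chains, which define mature hepatocytes, were therefore absent from both libraries, and simple epithelial keratins were present. The biliary keratin gene Krt19 was at 449 and 52.6 FPKM and Spp1 at 684 and 487. Of 14 endothelial and leukocyte markers 12 had no locus touching the gene in either library, Cd68 and Csf1r had one in scr at 4.38 and 3.33 FPKM, and none had a matched locus in miR-93-5p.

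Genes without a matched locus in 1 library were also described. Of 3099 genes matched in scr alone, 1293 had several miR-93-5p loci lying in the gene, 1337 had 1, 111 had loci that only touched the gene and 358 had none. Where both libraries had loci in such a gene, the median ratio of summed implied fragments was 0.398. In the other direction 349 genes were matched in miR-93-5p alone, and 89 of these had no locus in scr. Over genes with summed fragments in both libraries, the median log2 ratio after division by the library totals was -0.42 for the compared genes and -0.68 for the 4127 outside the comparison.

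Short loci inside long genes were more numerous in the miR-93-5p pulldown and lay mostly at the 3′ end in both libraries. Loci under 3 kb in genes of at least 10 kb numbered 2070 in scr and 4586 in miR-93-5p, in 1597 and 3189 genes. The last decile of gene length held 1224 of them (59.1%) in scr and 2498 (54.5%) in miR-93-5p, and the first decile held 152 (7.34%) and 620 (13.5%). Implied fragments in the last decile came to 60752 in scr and 178880 in miR-93-5p, which is 19.5% and 48.4% of those in all such short loci. In the last decile the 5 loci with the most fragments held 15.3% of them in scr and 24.6% in miR-93-5p. In the first 9 deciles of scr, 5 loci held between 54.9% and 90.8% of the fragments of a decile, so the bars there stand for a few loci. In the same deciles of miR-93-5p, 5 loci held between 21.7% and 74.6%, so several of those bars do so too. The median short locus of the last decile held 23.7 implied fragments in scr and 29.0 in miR-93-5p.

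**Figure D5:**
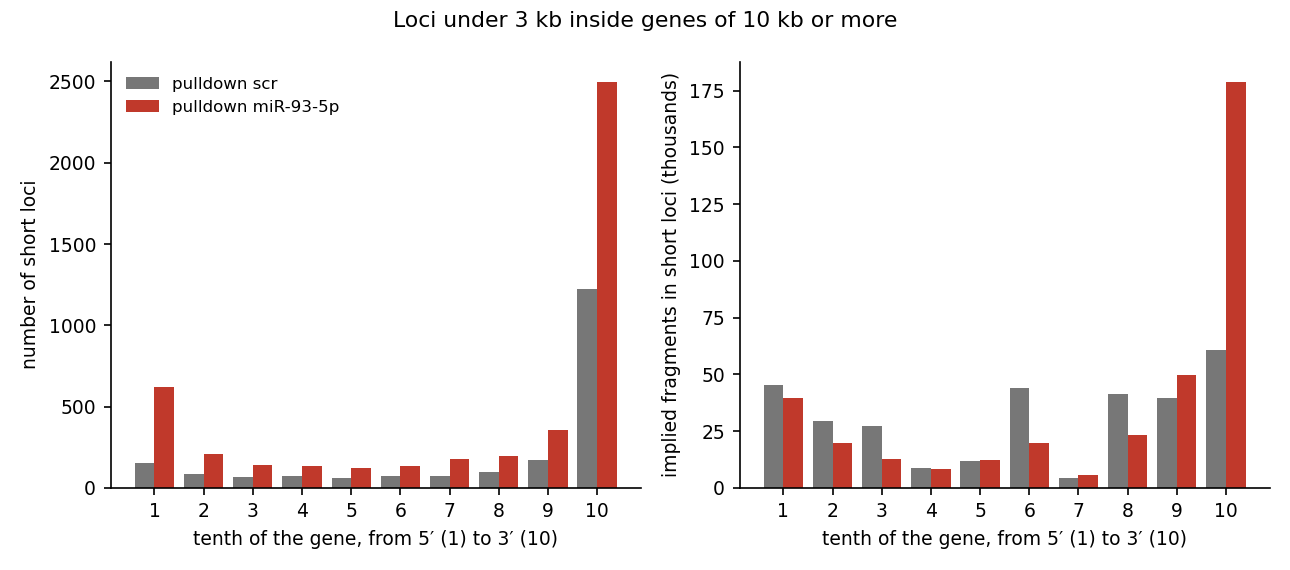
Number of loci under 3 kb in genes of at least 10 kb (left) and their implied fragments (right, in units of 1000) by decile of gene length from 5′ to 3′ (x axes), grey bars for the scr pulldown and red bars for miR-93-5p. The last decile holds 1224 loci in scr and 2498 in miR-93-5p, and 60752 and 178880 implied fragments.

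RNA-seq libraries of the same 2 conditions, 1 each, were set beside the pulldown. Over 8601 genes compared in RNA-seq, 3.01% were at least 2-fold higher in miR-93-5p and 3.91% lower. Of the 508 genes higher in both pulldown measures, 440 were measured in RNA-seq, and 12 of these were at least 2-fold higher there and 16 lower, with a median log2 ratio of 0.043. Of the 827 lower genes 727 were measured, with 26 higher and 27 lower and a median of 0.033, beside 0.029 for all genes. Socs1 was higher in RNA-seq too, at 1.19 FPKM in scr and 4.52 in miR-93-5p. E2f1 was at 22.5 and 16.4, Cacfd1 at 18.0 and 16.2, Qrich1 at 42.3 and 44.9 and Anapc2 at 73.3 and 66.3, all under 2-fold. Arpp19 was at 216 and 33.4 FPKM in RNA-seq and Xpa at 8.19 and 1.74, opposite in sign to the pulldown. Ifitm1 was at 5.41 and 163 in RNA-seq, also opposite to the pulldown. RNA-seq models were assembled per library as well and their lengths were not matched here.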

How the data were processed

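The 2 pulldown libraries and, beside them, 2 RNA-seq libraries of LEPC cells were used, 1 per group. FPKM per assembled locus, with bounds, is deposited by the authors, per the file headers. TopHat2, Cufflinks, Cuffdiff and the build mm9 are named, with Bowtie, MACS and CASAVA 1.4, per the submitters' processing notes. Locus starts lay within 5 bp of GRCm38.p6 gene starts for 809 loci in scr and 787 in miR-93-5p, against 35 and 27 for mm9, so pulldown loci were named through the GRCm38.p6 gene table, for names only. Another 35640 reference rows per pulldown file, all at FPKM 0, were left out, except that they named the RNA-seq loci.

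Bounds were read as FPKM ± 2 SD, and implied fragments as the squared ratio of FPKM to SD. Of loci under 40 implied fragments, 55.6% in scr and 57.8% in miR-93-5p lay within 0.1 of a whole number. Loci were paired with genes by mutual best overlap, with at least 0.5 of the joint length shared. Ratios are log2 of FPKM + 1, for a mean FPKM of at least 1, and of implied fragments + 10, with calls at 2-fold. No count test was run, since FPKM is not a count and each group had 1 library. The code was tested on simulated data. Intervals, counting errors and implied fragments cover counting and assignment only.

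Named genes were the 12 highest and 8 lowest in both measures with at least 30 implied fragments in each library, by the smaller of the 2 absolute log2 ratios, the 5 highest and 5 lowest in FPKM, up to 4 members per list of 27 lists with the largest FPKM ratio, and Cdkn1a, Mcm7 and E2f1. Further list members are named after their values were seen, and some genes that the rule names are not reported here. The comparison and the lists were chosen with earlier results of these data known. Python 3.11.15, pandas 2.3.3, numpy 2.4.6, scipy 1.17.1 and matplotlib 3.10.9 were used.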

Additional observations from a re-analysis of the deposited data

How the results depend on the processing

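Each group had 1 library, so none was left out, no interval covers biological spread, and depth limits genes with few fragments. No paired analysis was possible because each group had 1 library. Implied fragments per library total and the restriction to equal implied lengths were chosen after seeing the data.

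Against 639 higher and 1801 lower genes in FPKM, centring on the median gave 1107 and 1109, an overlap of at least 0.9 gave 407 and 1082 of 3286 genes, scaled implied fragments 1057 and 1169, implied fragments summed over each gene 1033 and 1084, and implied lengths within 1.25-fold 202 and 555 of 2107 genes. Against 508 and 827 genes in both measures, an overlap of at least 0.9 gave 329 and 514 of 3184, and implied fragments per library total gave 1252 lower. The overlap and length alternatives compare fewer genes. Pseudocounts of 0.1 and 5, no minimum and a minimum of 10 kept all 4 counts within 1.5 times, and no gene was under the minimum of 1. The median log2 ratio of -0.47 was -0.52 and -0.34 with those pseudocounts, -0.61 with the minimum of 10, -0.51 in implied fragments per library total, -0.33 with equal implied lengths, and 0 where scaled or centred. Loci matched directly between the libraries were higher for 1178 and lower for 2273 of 8273, and for 761 and 1591 of 5377 at an overlap of 0.9.

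Of 113 named genes past 2-fold in FPKM, all stayed past it with a pseudocount of 0.1, 103 with 5 and 104 after centring. In scaled implied fragments 83 of 111 stayed past it and 9 changed sign: Son (-0.19), Rplp0 (0.36), Rpsa (1.16), Hsp90ab1 (0.51), Drosha (0.20), Pcgf2 (3.16), Pik3r2 (0.75), Akt2 (0.22) and Cd24a (0.19). Summed over each gene these were -0.30, 0.25, 1.05, 0.40, 0.15, 3.31, 0.65, 0.12 and 0.078, and Pet100 (0.90), Cbx6 (0.042) and Wwtr1 (0.021) also changed sign. Per library total, Son (-0.71), Rpsa (0.62), Pcgf2 (2.73) and Pik3r2 (0.23) did. The ribosomal median changed sign to 0.44 in scaled, 0.35 in summed implied fragments and 0.054 with equal implied lengths, the respiratory chain median to 0.0058 in scaled implied fragments, and the proteasome and glycolysis medians to 0.12 and 0.17 with equal implied lengths. The Polycomb, tumour suppressor, Hippo and Wnt and PI3K-Akt-mTOR medians, all under 1 in size, were above 0 in scaled implied fragments and below it in FPKM. The cause was not tested.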
